A study of Mus musculus with 12 samples.

Results

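Kidneys of MRL/lpr mice, a strain that develops a lupus-like disease, were compared between 17 and 8 weeks of age. The comparison rests on 6 of the 12 libraries of the series, chosen by strain: 3 from MRL/MpJ-Fas<lpr>/J mice (MRL/lpr below) aged 17 weeks and 3 from the same strain aged 8 weeks. The other 6 libraries are from C57BL/6 kidneys, 3 at each of the same ages, and serve only to show where the MRL/lpr age difference departs from that of a strain without the mutation. Poly(A) RNA of whole kidney was sequenced, and expression is given as FPKM (sequenced fragments relative to mRNA length in kilobases and to all fragments of each library), summed over the mRNAs of each gene. All 6 MRL/lpr libraries carry the lpr mutation, no treatment is named in the labels, and MRL mice without lpr were not analysed here. The labels give neither sex nor time of day of collection and do not state that replicates are separate animals, so p-values measure the spread between these libraries, which may be technical.

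In the lpr mutation an inserted transposable element disrupts Fas, a death receptor that lymphocytes need for their removal, and lymphocytes that react to self antigens accumulate. Autoantibodies and immune complexes then lodge in the glomeruli, complement is activated, and macrophages, T cells and B cells enter the kidney, a condition known as lupus nephritis. Interferons raise antigen presentation genes in such tissue, and injured tubule cells lose transporters and gain a set of repair genes.

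Summed FPKM ranged from 510645 to 532734 over the 6 MRL/lpr libraries, in which 12079 to 12693 genes had at least 1 FPKM. The table holds no read counts, so depth is unknown and no counting intervals are given. Fas lay between 4.67 and 7.73 FPKM in MRL/lpr and between 5.88 and 9.95 in C57BL/6 libraries, and a summed level does not check the insertion. The first principal component of the 6 libraries held 57.5% of the variance and separated the ages. The third 8-week library stood nearest to the older ones on it, at -5.96 against -18.9 and -26.0 for the other 8-week libraries and 13.8 to 19.1 at 17 weeks. In that library 139 genes lay over 2-fold above the mean log2 level of the other 8-week libraries and 10 lay as far below. Counts over the immune and tubular injury lists below are given with and without it, as are some single genes. In the 3 older MRL/lpr libraries 7 genes, 4 of them seminal vesicle secretory proteins (Svs2, Svs4, Svs5 and Svs6), were at 0.42 to 3.72 FPKM and listed at 0 in the other 9. Their source was not tested.

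Of 12573 genes tested with limma on log2(FPKM + 1), 765 rose and 322 fell at 17 weeks (adjusted p under 0.05), which is 6.08% and 2.56% of those tested. Rises were larger than falls: 136 of the genes that rose and 7 of those that fell changed at least 2-fold. Rising genes made up 70.4% of all calls, a share that was 63.3% with upper-quartile, 56.3% with median-of-ratios and 48.2% with quantile scaling. Calls depended on single libraries. Without 8-week replicate 3, 1012 genes rose and 247 fell, and without 8-week replicate 1, 53 rose and 22 fell. The total of calls was 260 without 8-week replicate 2 and 131, 118 and 91 without 17-week replicates 1, 2 and 3. For 2751 genes (21.9%) the 3 libraries at 17 weeks all lay above the 3 at 8 weeks, and for 1595 (12.7%) all lay below.

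**Figure D1:**
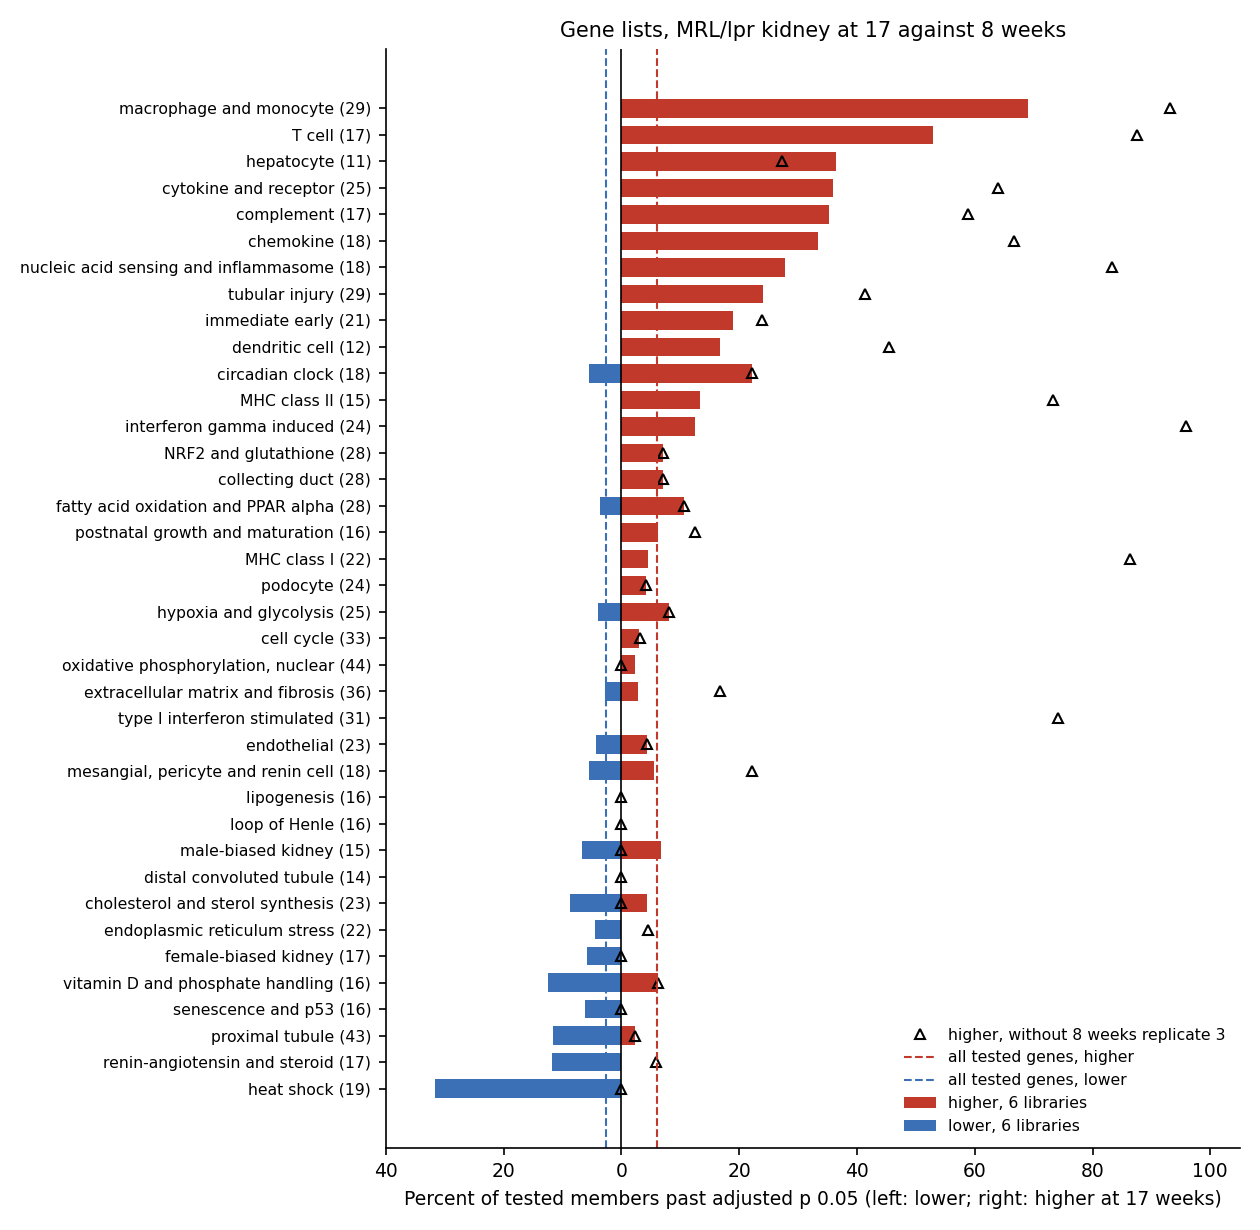
Share of the tested members of each gene list that rose (to the right) or fell (to the left) at 17 weeks in MRL/lpr kidney, in percent, for lists with at least 10 tested members; the number tested is in brackets. Triangles mark the share that rose without 8-week replicate 3, and dashed lines mark the shares over all genes, 6.08% and 2.56%. Macrophage and T cell lists have the longest bars with all 6 libraries, and the interferon and MHC lists reach far to the right only in the triangles.

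Macrophage genes were higher in the older kidneys. Of 29 tested markers of macrophages and monocytes, 20 rose and none fell, against 6.08% of all genes, with a median log2 difference of 1.40 against 0.04 over all genes. Their mean log2 level was 2.47, 2.14 and 3.04 in 8-week replicates 1, 2 and 3 and 3.86, 3.85 and 3.87 in the 17-week libraries. All 3 older kidneys thus lay above all 3 younger ones, and they differed among themselves by far less. In bulk RNA more macrophages and more RNA per macrophage cannot be told apart, here and for every cell type that follows.

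Lyz2 (gene ID 17105, lysozyme of myeloid cells) stood at 47.7, 31.6 and 69.0 FPKM at 8 weeks and at 303, 266 and 232 FPKM at 17 weeks, a log2 difference of 2.47 ± 0.28 (SE, limma adjusted p = 0.013). Its near-identical copy Lyz1 rose by 2.50 ± 0.26, and reads may be shared between them. C1qa, a chain of the complement starter C1q that macrophages make, read 25.3, 19.3 and 48.3 FPKM at 8 weeks and 93.8, 74.1 and 100.9 at 17 weeks. The groups did not overlap, and the log2 difference was 1.60 ± 0.34 (adjusted p = 0.0456). Ctss (gene ID 13040), the cathepsin that trims the MHC class II invariant chain, rose from 22.5, 14.3 and 43.7 to 93.2, 90.8 and 99.1 FPKM, by 1.92 ± 0.38 on the log2 scale (adjusted p = 0.0406). In these 3 genes 8-week replicate 3 was the highest of the young kidneys, yet below every older one.

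Trem2, a lipid-sensing receptor of tissue macrophages, was at 0.65, 0.26 and 0.87 FPKM at 8 weeks and at 4.81, 4.92 and 4.02 at 17 weeks (log2 difference 1.82 ± 0.16, adjusted p = 0.00728). Gpnmb, a lysosome-associated glycoprotein often found with Trem2, was near its lower end at 8 weeks, at 0.10, 0.06 and 0.03 FPKM, and reached 2.15, 3.97 and 3.20 (1.92 ± 0.17, adjusted p = 0.00731). Wfdc17, a small secreted protein of activated macrophages, went from 0.13, 0 and 0.13 to 3.91, 3.34 and 5.22 FPKM (2.23 ± 0.15, adjusted p = 0.00525). For such low genes the difference on the log2(FPKM + 1) scale understates the ratio of the levels. Adgre1 (F4/80), the usual surface marker of kidney macrophages, did not pass the test: it read 1.99, 1.69 and 5.66 FPKM at 8 weeks and 4.92, 5.56 and 6.25 at 17 weeks (adjusted p = 0.193). Csf1r, the receptor for the main macrophage growth factor, also missed it, at 23.8 ± 6.30 against 33.4 ± 1.70 FPKM (SD, n = 3; limma adjusted p = 0.14).

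The number of macrophage markers that rose was 27 of 29 without 8-week replicate 3 and 10 without 8-week replicate 2. It was 2, 2, 1 and 0 without 8-week replicate 1 and 17-week replicates 1, 2 and 3, while the median difference over the list stayed between 1.21 and 1.74 in all of these. Trem2, Gpnmb and Wfdc17 passed in each of the 3 fits that tested them (with a 17-week library left out they reach 1 FPKM in too few libraries). Lyz2 passed in 2 of 6 fits with 1 library left out, and C1qa and Ctss passed only without 8-week replicate 3, at adjusted p between 0.0031 and 0.128 for C1qa.

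**Figure D2:**
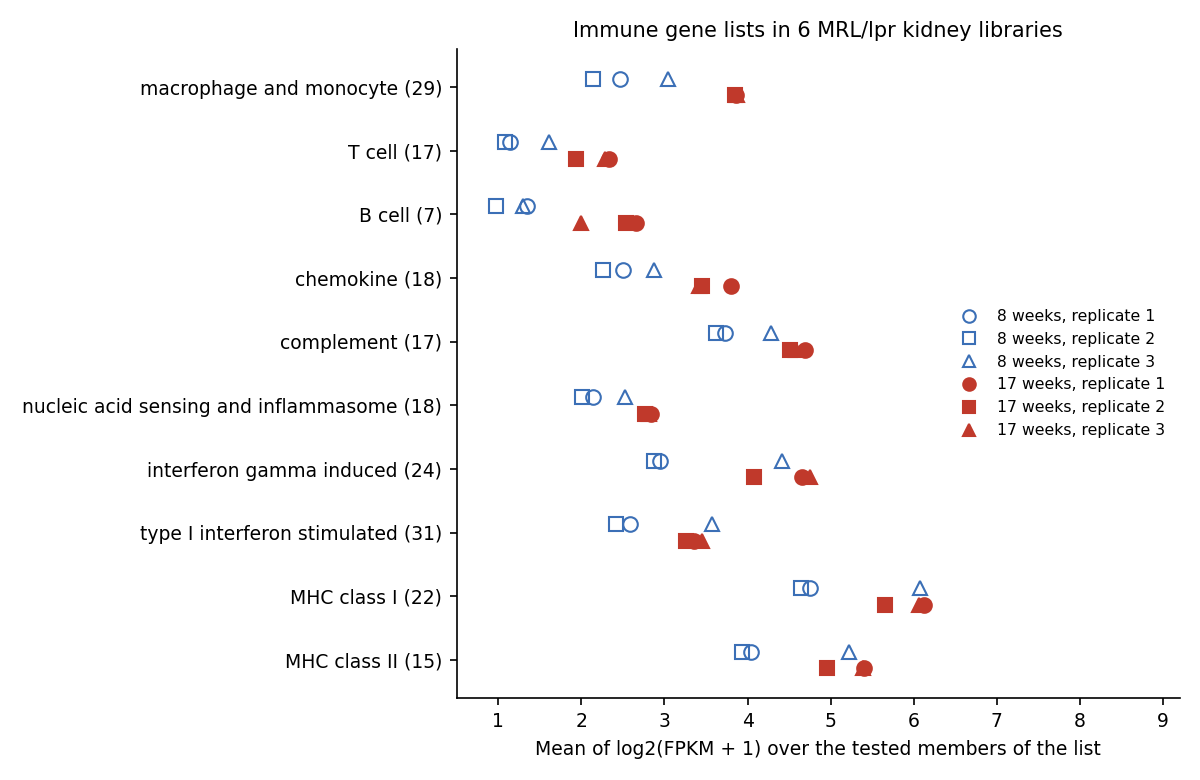
Mean of log2(FPKM + 1) over the tested members of 10 immune gene lists (number of members in brackets) in each of the 6 MRL/lpr libraries; open blue symbols are 8 weeks, filled red symbols 17 weeks, and the symbol shape is the replicate. In the macrophage list the red symbols coincide near 3.86 and all blue symbols lie to their left, whereas in the MHC class I list the blue triangle, 8-week replicate 3 at 6.07, lies among the red ones.

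Among the named genes the chemokine Ccl8 and the secreted protein Chil1 had the largest rises. Ccl8 (gene ID 20307, chromosome 11, 82115185 to 82116799), which attracts monocytes and T cells, stood at 2.08, 0.59 and 3.91 FPKM at 8 weeks and at 56.4, 36.2 and 48.7 at 17 weeks (log2 difference 4.04 ± 0.42, adjusted p = 0.0128). Even the lowest older kidney was far above the highest younger one. Cxcl13, the chemokine that draws B cells into follicles, read 1.06, 0.49 and 0.59 FPKM and then 8.67, 5.73 and 13.0 (2.51 ± 0.27, adjusted p = 0.0106). Cxcl9, an interferon gamma-induced chemokine for T cells, rose from 3.37, 2.67 and 4.09 to 17.2, 8.03 and 14.3 FPKM (1.65 ± 0.27, adjusted p = 0.0259). Of 18 chemokine genes tested 6 rose, against 6.08% of all genes, and 12 did without 8-week replicate 3 (1 to 5 with another library left out); Ccl3, Ccl4 and Ccl9, which attract monocytes, were the remaining ones. Ccl2, a monocyte attractant, did not pass and overlapped, at 5.96, 4.04 and 4.70 FPKM against 7.48, 4.99 and 2.97 (adjusted p = 0.994).

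Chil1 (gene ID 12654, at 134182156 to 134190031 on chromosome 1) encodes a chitinase-like protein that inflamed tissue secretes. It was at 1.15, 0.34 and 0.30 FPKM at 8 weeks and at 20.7, 9.23 and 19.8 at 17 weeks (3.42 ± 0.35, adjusted p = 0.0106). Pla2g2d, a secreted phospholipase of lymphoid tissue, rose from 0.38, 0.20 and 0.23 to 6.58, 3.24 and 6.12 FPKM (2.27 ± 0.22, adjusted p = 0.00944). Saa3, an acute phase protein made outside the liver, rose from 0.35, 0.45 and 0.11 to 9.17, 2.02 and 5.94 FPKM (2.21 ± 0.43, adjusted p = 0.0387). The 17-week replicates of Saa3 were far apart, and it passed in none of the 3 fits with an 8-week library left out (adjusted p 0.0784 to 0.111). Chil1 and Cxcl13 passed in all 6 fits with 1 library left out and Pla2g2d in all 3 that tested it. Cxcl9 passed in 2 of 6 (adjusted p = 0.0325 without 8-week replicate 3, and up to 0.0875 in the other fits). Ccl8 kept its call in 3 of 6, losing it without 8-week replicate 1 and without 17-week replicates 1 and 3, at adjusted p of at most 0.0553.

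**Figure D3:**
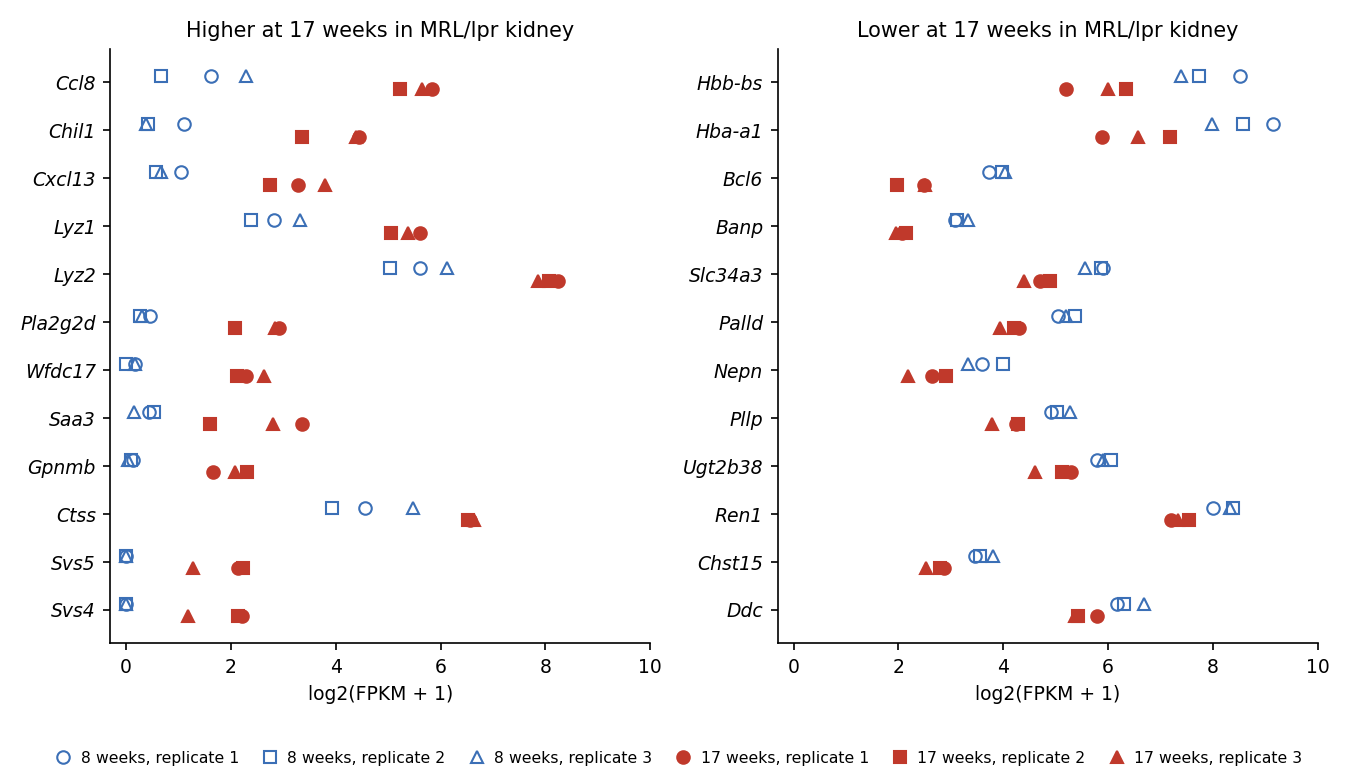
The 12 genes with the largest rises and the 12 with the largest falls among the named genes, as log2(FPKM + 1) in each MRL/lpr library (open blue symbols 8 weeks, filled red symbols 17 weeks, shape by replicate). Groups do not overlap in any of them, which the rule for naming required; Svs4 and Svs5 are listed at 0 in all 3 younger kidneys.

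Lymphocyte genes rose in part. Of 17 T cell markers tested, 9 rose and none fell (6.08% of all genes rose), with a median log2 difference of 0.97. Cd3d, a chain of the T cell receptor complex, stood at 0.71, 1.18 and 1.98 FPKM at 8 weeks and at 7.34, 3.43 and 6.08 at 17 weeks (1.52 ± 0.29, adjusted p = 0.0324). Cd4, the helper T cell co-receptor, rose from 1.88, 1.90 and 4.22 to 7.69, 5.79 and 6.85 FPKM (adjusted p = 0.0422). Both groups of values are apart in each gene, with the third young kidney closest to the old ones. With 1 library left out Cd3d kept its call in 2 of 6 fits (limma adjusted p up to 0.102). Cd4 kept its call only without 8-week replicate 3 (adjusted p = 0.00253, and up to 0.121 in the other fits). The other T cell coreceptor gene, Cd8a, overlapped, at 14.1, 15.9 and 12.4 against 14.9, 13.0 and 15.1 FPKM (log2 difference 0.02, adjusted p = 0.901). Its level was above those of Cd3d and Cd4 in every MRL/lpr kidney, and C57BL/6 kidneys read 0.78, 0.75 and 0.70 FPKM at 8 weeks. Cd8b1, which encodes the partner chain, overlapped too, at 0.747 ± 0.557 and 1.14 ± 0.237 FPKM (SD, n = 3, limma adjusted p = 0.356). Whether CD8 T cells changed was not tested.

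Among 7 tested B cell markers 4 rose (6.08% of all genes did), with a median difference of 1.26. Cd79b, the signalling chain of the B cell receptor, read 1.10, 0.72 and 0.90 FPKM at 8 weeks and 3.97, 4.83 and 2.23 at 17 weeks (1.26 ± 0.22, adjusted p = 0.0255). Cd37, a tetraspanin of B cells and other leukocytes, rose by 1.35 ± 0.17 (adjusted p = 0.0131). Plasma cell genes varied between the older kidneys. Jchain, which joins IgA and IgM, was at 16.1, 3.22 and 10.4 FPKM at 8 weeks and at 195, 241 and 11.2 at 17 weeks. Replicates 1 and 2 were high and replicate 3 was within the range of the young kidneys, and the difference did not pass (3.15 ± 1.26, adjusted p = 0.169). Of 8 plasma cell genes tested 1 rose, and none did in 4 of the 6 fits with 1 library left out.

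Of 12 dendritic cell genes 2 rose, Itgax (CD11c, also on macrophages) and Cd83, a maturation marker that went from 0.89, 0.79 and 1.88 to 3.82, 3.78 and 4.47 FPKM (1.23 ± 0.19, adjusted p = 0.0186). Xcr1, the marker of cross-presenting dendritic cells, stood at 1.06 ± 0.859 and 1.10 ± 0.193 FPKM (SD, n = 3; limma adjusted p = 0.842). None of 6 natural killer and cytotoxic genes rose by limma's adjusted p (5 were higher at an unadjusted p under 0.05), and 1 of 7 neutrophil genes did. Without 8-week replicate 3, 4 of 5 cytotoxic, 4 of 7 neutrophil and 5 of 11 dendritic cell genes rose, and with any other library left out at most 0, 0 and 1 did. The count of T cell markers that rose lay between 0 and 14 with 1 library left out: 14 of 16 tested without 8-week replicate 3, 3 without 17-week replicate 2, 1 without 8-week replicate 2, and 0 without 8-week replicate 1 or 17-week replicates 1 or 3. B cell markers that rose lay between 0 and 4, with 4 without 8-week replicate 3, 1 without 8-week replicate 2 or 17-week replicate 3, and 0 without any of the others.

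Antigen presentation and interferon genes differed from the macrophage genes in 1 young kidney. H2-K1, a classical MHC class I heavy chain, stood at 199, 189.8 and 1004 FPKM at 8 weeks and at 989.6, 535 and 801 at 17 weeks. The third young kidney was thus above all older ones, and the difference did not pass (1.16 ± 0.69, adjusted p = 0.325). B2m, the light chain of class I molecules, read 533, 508 and 1994 FPKM and then 1770, 1057 and 1721 (adjusted p = 0.378). H2-Ab1, a class II chain, read 77.7, 72.1 and 429 FPKM and then 406, 238 and 374 (adjusted p = 0.297). Of 22 class I genes 1 rose and of 15 class II genes 2 rose, against 6.08% of all genes. In replicate 3, 15 and 9 of them lay over 2-fold above the mean of the other young kidneys, against 139 of 12573 genes tested. H2 genes have near-identical copies that vary between strains, and MRL/lpr reads were aligned to a C57BL/6 reference, so a level of 1 H2 gene is uncertain.

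Genes induced by interferon gamma were also higher in 8-week replicate 3 than in the other young kidneys. Their mean log2 level over 24 genes was 2.95, 2.87 and 4.41 at 8 weeks and 4.65, 4.08 and 4.75 at 17 weeks, and 3 of the 24 rose against 6.08% of all genes. Gbp2, a GTPase that attacks intracellular microbes, stood at 10.9, 12.7 and 44.7 FPKM and then at 97.8, 45.5 and 94.7, without overlap but not past the test (1.96 ± 0.59, adjusted p = 0.0967). Irf1, the transcription factor that carries much of the interferon gamma response, read 14.8, 15.6 and 41.6 FPKM and then 56.8, 35.7 and 49.7 (adjusted p = 0.158). Of 31 type I interferon-stimulated genes none rose by limma's adjusted p, and 4 had an unadjusted p under 0.05; their mean log2 level was 2.58, 2.42 and 3.57 at 8 weeks and 3.35, 3.26 and 3.45 at 17 weeks, so the third young kidney was the highest of all 6. Irf7, the amplifier of that response, was at 9.73, 7.93 and 31.0 FPKM at 8 weeks and at 12.2, 16.97 and 20.6 at 17 weeks (adjusted p = 0.786).

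Without 8-week replicate 3, 19 of 22 class I, 11 of 15 class II, 23 of 24 interferon gamma-induced and 23 of 31 type I interferon genes rose, and with any other library left out at most 1 gene in each of these lists did. H2-K1 then differed by 1.94 (adjusted p = 0.0123), Irf1 by 1.56 (adjusted p = 0.00935) and Gbp2 by 2.58 (adjusted p = 0.0203) on the log2 scale. In that library 9 of 29 macrophage and 0 of 17 T cell markers lay over 2-fold above the mean of the other young kidneys. Of these lists, 3 and 1 markers reached the lowest 17-week library. That level was reached by 21 of 22 class I, 12 of 15 class II, 17 of 24 interferon gamma-induced and 31 of 31 type I interferon genes, and by 7899 of all 12573 genes. What sets that kidney apart was not tested.

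Promoters of 3 of these genes are shown because they hold the letters that interferon-activated factors are known to bind; an interferon-stimulated response element was searched as GAAA, any 2 bases and GAAA again, and a gamma-activated site as TTCNNNGAA, on both strands, in windows from 150 bases before to 30 bases after the start site (RefSeq, GRCm38.p6). Of 32851 such windows of 27025 genes, 1.9% held the first and 4.94% the second. Irf1 (chr11:53769864-53770043, plus strand) holds a gamma-activated site 90 bases before its start, and Gbp2 (chr3:142620513-142620692, plus strand) and Ctss (chr3:95526636-95526815, plus strand) hold a response element 59 and 21 bases before theirs, in capitals below.
Irf1: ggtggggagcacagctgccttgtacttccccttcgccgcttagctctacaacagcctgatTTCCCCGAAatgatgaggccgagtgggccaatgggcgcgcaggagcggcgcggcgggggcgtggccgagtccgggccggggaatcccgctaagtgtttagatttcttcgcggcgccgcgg
Gbp2: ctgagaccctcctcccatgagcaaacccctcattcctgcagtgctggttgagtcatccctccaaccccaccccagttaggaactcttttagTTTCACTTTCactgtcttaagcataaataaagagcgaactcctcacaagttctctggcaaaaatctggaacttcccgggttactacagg
Ctss: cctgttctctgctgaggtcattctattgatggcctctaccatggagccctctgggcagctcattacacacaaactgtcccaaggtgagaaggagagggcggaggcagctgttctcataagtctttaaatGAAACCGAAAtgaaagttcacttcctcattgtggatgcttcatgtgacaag
Of 24 interferon gamma-induced genes tested 18 had a window, of which 9 held the gamma-activated site and 10 the response element. Of the 3 that rose, 1 (Icam1) held the site and 0 the response element. Of 31 type I interferon-stimulated genes 22 had a window, and 8 held the response element. A gene counts here if any of its windows has a match, whereas the percentages above are shares of single windows. The window of Irf1 shown is 1 of 2 for the gene, the one with the most matches. A match describes the letters, not binding.

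Some complement, cytokine and nucleic acid sensing genes rose, and each count here stands against 6.08% of all genes. Of 17 complement genes 6 rose. C3, the central complement protein, went from 24.04, 15.98 and 25.4 to 79.2, 44.0 and 56.7 FPKM (1.40 ± 0.26, adjusted p = 0.033), and all older kidneys were above all younger ones. Cfb, the factor of the alternative pathway, overlapped between the ages, at 170 ± 10.6 and 177 ± 14.2 FPKM (SD, n = 3; limma adjusted p = 0.67). Of 25 cytokine and receptor genes 9 rose, among them Il2rg, the shared gamma chain, and Socs3, an inhibitor of cytokine signalling (1.06 ± 0.16, adjusted p = 0.018).

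Of 18 nucleic acid sensing and inflammasome genes 5 rose. Casp4, the caspase that senses bacterial lipid inside cells, varied little within each age, at 1.60, 1.69 and 1.65 FPKM at 8 weeks and 4.07, 4.40 and 4.44 at 17 weeks (log2 difference 1.0 ± 0.07, adjusted p = 0.00728). It passed in all 6 fits with 1 library left out. Here 8-week replicate 3 was not set apart. Sting1, the adaptor of cytosolic DNA sensing, stood at 2.70, 2.66 and 5.22 FPKM and then at 8.96, 7.71 and 7.51 (1.04 ± 0.21, adjusted p = 0.0377). Sting1 and C3 passed only without 8-week replicate 3 when 1 library was left out, at adjusted p of at most 0.114 and 0.0974. Without 8-week replicate 3, 10 complement, 16 cytokine and 15 sensing genes rose, and with any other library left out at most 1, 2 and 1 did.

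Tubule repair genes rose in part while kidney injury molecule 1 did not. Of 29 tubular injury genes 7 rose, against 6.08% of all genes (12 without 8-week replicate 3, 1 without 8-week replicate 1 or 17-week replicate 1), and the median log2 difference was 0.43. Vim (vimentin, a filament protein that recovering tubule cells and leukocytes both make) read 28.7, 22.7 and 29.7 FPKM at 8 weeks and 64.0, 71.0 and 65.8 at 17 weeks (1.29 ± 0.10, adjusted p = 0.00728), and it passed in all 6 fits with 1 library left out. Anxa2 and Cd44, which leukocytes also express, rose by 0.94 and 0.87. Havcr1 (kidney injury molecule 1, made by injured proximal tubule) overlapped, at 112, 106 and 157 FPKM against 161, 86.1 and 35.8 (adjusted p = 0.484). Its level was thus already high in MRL/lpr at 8 weeks, when C57BL/6 kidneys read 0.41, 0.37 and 0.47 FPKM. Lcn2, another injury marker, was higher in every older kidney, at 2.32, 1.22 and 3.77 against 10.8, 9.27 and 5.10 FPKM, but did not pass (1.46 log2, adjusted p = 0.0589).

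Few scar and glomerular genes passed the test. Of 36 matrix and fibrosis genes, Thbs1 rose by 0.30 and Timp3, an inhibitor of matrix proteases, fell by 0.45 ± 0.06 (adjusted p = 0.0128), with a median of 0.06 over the list against 0.04 over all genes. Thbs1 kept its call in none of the 6 fits with 1 library left out (adjusted p 0.0667 to 0.113). Without 8-week replicate 3, 6 matrix genes rose. Col1a1, the main collagen of scars, stood at 6.03, 3.91 and 9.80 FPKM at 8 weeks and at 7.29, 8.2 and 4.11 at 17 weeks (log2 difference 0.02 ± 0.35, adjusted p = 0.976). Of 24 podocyte genes 1 rose, with a median of 0.00. Nphs1 (nephrin, of the filtration slit) read 11.7, 9.13 and 9.99 FPKM and then 10.7, 14.1 and 11.5 (adjusted p = 0.289).

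In the endothelial list of 23 genes 1 rose and 1 fell, shares near the background. Sox18, a transcription factor of endothelial cells, fell from 11.3, 9.67 and 12.2 to 5.26, 6.41 and 6.22 FPKM (-0.79 ± 0.10, adjusted p = 0.0131), and Cldn5, a tight junction protein, rose by 0.39 ± 0.05 (adjusted p = 0.0151). Serpine2, an inhibitor of thrombin and plasminogen activators, belongs to a separate list of mesangial, pericyte and renin cell genes. It rose from 11.1, 9.72 and 12.4 to 20.3, 21.9 and 19.9 FPKM (0.85 ± 0.09, adjusted p = 0.00991) and passed in all 6 fits with 1 library left out. Sox18 kept its call in 4 of them, losing it without 8-week replicate 1 (adjusted p up to 0.0598) or 17-week replicate 3. Of 33 cell cycle genes 1 rose, below the 6.08% of all genes, though 29 of them had a difference above 0 (median 0.13 against 0.04 over all genes, and 0.00 with quantile normalization). Mki67, the proliferation marker, read 1.14, 0.61 and 1.32 against 1.83, 1.23 and 1.01 FPKM (adjusted p = 0.461).

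Transporters and enzymes of the proximal tubule, which reclaims glucose, urate, phosphate and amino acids from the filtrate, fell in part. Of 43 tested genes 5 fell and 1 rose, against 2.56% and 6.08% of all genes, with a median of -0.23, and most did not pass. Slc5a2 (SGLT2, glucose) stood at 322, 327 and 269 FPKM at 8 weeks and at 168, 218 and 172 at 17 weeks (log2 difference -0.72). Slc22a12 (URAT1, urate) fell from 606, 614 and 657 to 398, 418 and 352 FPKM (-0.69 ± 0.08, adjusted p = 0.0104). Gatm, the enzyme of the first step of creatine synthesis, fell from 481, 469 and 452 to 289, 313 and 304 FPKM (-0.63 ± 0.06, adjusted p = 0.00876). Older kidneys were below younger ones without overlap in all 3. Lrp2 (megalin, the receptor for filtered protein) did not pass, at 231 ± 6.31 and 200 ± 25.9 FPKM (SD, n = 3; limma adjusted p = 0.199). The number that fell was between 1 (without 8-week replicate 1) and 5 (without 17-week replicate 2) with 1 library left out. Slc22a12 lost its call only without 8-week replicate 1, at adjusted p = 0.051. Slc5a2 kept its call in 2 of 6 such fits (adjusted p up to 0.0928).

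In the distal segments few genes passed. None of 16 genes of the loop of Henle and none of 14 of the distal convoluted tubule changed by limma's adjusted p (3 and 2 had an unadjusted p under 0.05); Umod (uromodulin of the thick ascending limb) read 2396, 1883 and 2189 FPKM and then 2512, 2201 and 2456 (adjusted p = 0.362). Of 28 collecting duct genes 2 rose, a share near the 6.08% of all genes. Aqp2, the vasopressin-regulated water channel, went from 125, 116 and 105.1 to 190.5, 173 and 250.1 FPKM (0.81 ± 0.14, adjusted p = 0.0256), and it kept its call only without 8-week replicate 3 when 1 library was left out. Whether the segments differ in their change was not tested.

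Of 16 genes of vitamin D and phosphate handling 1 rose and 2 fell, against 6.08% and 2.56% of all genes, so the share that rose is at the background. Cyp24a1 (gene ID 13081, chromosome 2, 170482957 to 170497145), the enzyme that inactivates vitamin D hormone, rose from 28.1, 33.6 and 24.3 to 65.3, 103 and 68.2 FPKM (1.41 ± 0.20, adjusted p = 0.0175). Slc34a3 (gene ID 142681, chromosome 2, 25228897 to 25234270), a sodium phosphate transporter of the proximal tubule, fell from 58.7, 57.4 and 46.0 to 25.0, 28.8 and 20.2 FPKM (-1.11 ± 0.15, adjusted p = 0.0151). Kl (klotho, the co-receptor for the phosphate hormone FGF23) fell from 189.6, 203 and 166 to 101.5, 121 and 142 FPKM (-0.62 ± 0.13, adjusted p = 0.0404). For these 3 genes every older kidney lay on 1 side of every younger one. Slc34a1, the main renal phosphate transporter, was at 2690 ± 285 and 2032 ± 266 FPKM and missed the threshold (SD, n = 3; limma adjusted p = 0.079).

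Cyp27b1, the enzyme that makes active vitamin D, read 2.06, 2.00 and 2.21 FPKM at 8 weeks and 1.63, 1.08 and 1.5 at 17 weeks (-0.37 ± 0.11, adjusted p = 0.0818), and the receptor Vdr did not pass either, at 82.8 ± 7.94 and 82.0 ± 9.34 FPKM (SD, n = 3; limma adjusted p = 0.934). Kl kept its call only without 8-week replicate 3 when 1 library was left out (adjusted p up to 0.123). Slc34a3 lost its call without 8-week replicate 1 or 17-week replicate 1, and Cyp24a1 without 8-week replicate 1 or 17-week replicates 1 or 3. Ren1 (renin, the hormone-like protease of the juxtaglomerular cells) fell from 255, 335 and 319 to 145, 187 and 160 FPKM (-0.88 ± 0.13, adjusted p = 0.0181). It kept its call in 3 of 6 fits with 1 library left out (adjusted p up to 0.069).

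Heat shock genes fell in part at 17 weeks. Of 19 chaperones and co-chaperones tested 6 fell and none rose, against 2.56% of all genes falling, and in 12 of the 19 all older kidneys were below all younger ones (12.7% of all genes). Dnajb1 (gene ID 81489, chromosome 8, 83608175 to 83612653), the J-domain partner of HSP70, varied little within each age, at 21.2, 20.9 and 21.8 FPKM at 8 weeks and 12.3, 12.5 and 11.9 at 17 weeks (-0.76 ± 0.05, adjusted p = 0.00525). Hsph1, an exchange factor of HSP70, fell from 57.4, 45.2 and 55.4 to 33.5, 28.3 and 29.7 FPKM (-0.76 ± 0.11, adjusted p = 0.0151). Chordc1, a co-chaperone of HSP90, fell from 27.6, 22.6 and 24.5 to 14.6, 12.4 and 17.1 FPKM (-0.73 ± 0.12, adjusted p = 0.0234), and Dnaja1, another J-domain protein, fell by 0.68 ± 0.12 (adjusted p = 0.0264). Hspa8, the constitutive HSP70, and Fkbp4 fell by 0.39 and 0.29. The inducible HSP70 genes Hspa1a and Hspa1b, near-identical copies, did not pass, at -0.57 (adjusted p = 0.112) and -0.79 (adjusted p = 0.158). Between 1 (without 8-week replicate 1 or 17-week replicate 2) and 6 (without 8-week replicate 3) of the 19 fell with 1 library left out, and Dnajb1 passed in all 6 such fits.

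Promoters of the 4 heat shock genes with the largest falls past the test are shown because heat shock factor binds inverted repeats of the letters GAA; the element was searched as GAANNTTC or TTCNNGAA, which 9.2% of all windows of this length hold, and matches (which may overlap) are in capitals. Hsph1 (chr5:149636286-149636465, minus strand) has 3 matches, Chordc1 (chr9:18292117-18292296, plus strand) has 4 in a row around its start, Dnaja1 (chr4:40722318-40722497, plus strand) has 1, and Dnajb1 (chr8:83608025-83608204, plus strand) has 0 in this window.
Hsph1: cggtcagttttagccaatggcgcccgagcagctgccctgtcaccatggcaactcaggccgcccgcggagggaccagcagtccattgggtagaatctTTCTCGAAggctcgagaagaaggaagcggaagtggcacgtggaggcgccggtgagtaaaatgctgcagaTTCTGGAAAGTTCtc
Chordc1: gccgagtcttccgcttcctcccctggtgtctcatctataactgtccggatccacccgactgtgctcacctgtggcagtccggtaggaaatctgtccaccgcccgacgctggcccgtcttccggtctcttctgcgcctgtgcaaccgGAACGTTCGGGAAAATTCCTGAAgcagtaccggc
Dnaja1: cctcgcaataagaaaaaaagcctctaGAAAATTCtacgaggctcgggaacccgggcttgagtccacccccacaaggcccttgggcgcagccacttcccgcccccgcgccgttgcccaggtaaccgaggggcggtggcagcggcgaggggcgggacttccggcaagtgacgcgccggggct
Dnajb1: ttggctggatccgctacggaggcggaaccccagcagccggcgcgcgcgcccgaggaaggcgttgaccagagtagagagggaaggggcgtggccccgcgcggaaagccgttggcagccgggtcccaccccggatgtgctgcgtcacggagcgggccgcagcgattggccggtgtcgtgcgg
Of the 19 tested genes 15 had a window and 9 of these held the element in any of their windows. Of the 6 that fell, 5 had a window and 3 held it. The 9.2% is a share of single windows, not of genes. The windows of Hsph1 and Dnajb1 shown are each 1 of 2 for the gene and that of Dnaja1 1 of 3. For each gene the window with the most matches is shown, so neither window of Dnajb1 held the element.

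Of 18 clock genes tested, 4 rose and 1 fell, against 6.08% and 2.56% of all genes, and the median difference was 0.05 against 0.04 over all genes. Cry1, a repressor of the clock, went from 1.48, 1.11 and 0.80 to 2.88, 4.37 and 6.55 FPKM (1.35 ± 0.25, adjusted p = 0.0293), and its paralog Cry2 from 7.83, 7.95 and 7.09 to 12.7, 14.4 and 15.6 (0.82 ± 0.08, adjusted p = 0.00968). Nr1d1 (REV-ERB alpha), a repressor in the clock, fell from 48.0, 55.1 and 48.3 to 35.2, 30.4 and 20.8 FPKM (-0.82 ± 0.18, adjusted p = 0.0456). With 1 library left out Nr1d1 kept its call in none of the 6 fits, Cry1 in 2 (adjusted p up to 0.095) and Cry2 in all 6. In these fits 1 to 4 clock genes rose, 4 without 8-week replicate 3. Time of day of collection moves these genes and is not in the labels, so age and hour cannot be told apart. The promoter of Cry1 (chr10:85185025-85185204, minus strand) is shown because it holds the E-box CACGTG, in capitals, which clock activators bind and 5.09% of all windows hold.
Cry1: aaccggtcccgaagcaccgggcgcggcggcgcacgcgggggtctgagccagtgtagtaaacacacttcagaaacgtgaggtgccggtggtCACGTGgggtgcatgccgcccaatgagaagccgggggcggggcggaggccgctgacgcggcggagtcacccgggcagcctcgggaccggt
Of 18 clock genes tested 15 had a window, and 3 (Ciart, Cry1 and Tef) held the E-box in any of their windows, whereas the 5.09% is a share of single windows.

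A few further genes changed whichever library was left out. Bcl6, a transcriptional repressor of lymphocytes and of metabolic genes, fell from 12.3, 14.7 and 15.3 to 4.58, 2.93 and 4.66 FPKM (-1.59 ± 0.16, adjusted p = 0.00991). Banp, a nuclear DNA-binding protein, fell from 7.43, 7.65 and 8.99 to 3.22, 3.41 and 2.86 FPKM (-1.11 ± 0.09, adjusted p = 0.00728), and Palld (palladin, an actin scaffold) from 31.9, 40.5 and 35.7 to 18.6, 17.5 and 14.3 FPKM (-1.06 ± 0.12, adjusted p = 0.0104). Pdk4, the kinase that shuts glucose carbon out of the mitochondria, rose from 8.30, 5.71 and 6.87 to 16.4, 15.3 and 14.7 FPKM (1.06 ± 0.12, adjusted p = 0.00991). Each of these 4 passed in all 6 fits with 1 library left out. Of 44 oxidative phosphorylation genes 1 rose, with a median of -0.03, and of 28 fatty acid oxidation genes 3 rose and 1 fell, against 6.08% and 2.56% of all genes.

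Some red cell and liver genes changed as well. Hbb-bs (beta globin) was at 366, 212 and 166 FPKM at 8 weeks and at 35.8, 80.3 and 62.5 at 17 weeks (-2.03 ± 0.40, adjusted p = 0.0404), and Hba-a1 fell by 2.02 ± 0.42 (adjusted p = 0.0446). Their near-identical copies Hbb-bt and Hba-a2 did not pass (adjusted p = 0.0976 and 0.354), and both calls were kept only without 8-week replicate 3 when 1 library was left out. The 9 erythroid genes found, 6 of them tested, summed to 474 to 1035 FPKM at 8 weeks and 118 to 256 at 17 weeks. Of 11 hepatocyte markers 4 rose (Serpina1b, Hp, Trf and Fga), against 6.08% of all genes, and 0 to 3 did with 1 library left out, 3 without 8-week replicate 3. The sum over the list went from 57.3 to 59.0 FPKM at 8 weeks to 86.9 to 111 at 17 weeks. Alb, the most abundant liver transcript, stood at 2.72, 3.18 and 2.43 FPKM against 2.77, 5.91 and 6.78 (adjusted p = 0.176). The part of blood content in the globin result and of liver RNA in others was not tested.

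The same age step in C57BL/6 kidneys was compared with that in MRL/lpr. The difference between the strains in their age difference (the interaction of strain and age, limma on all 12 libraries) passed for 7 of 12931 genes, 0.0541%, 5 more positive and 2 more negative in MRL/lpr. A single control library weighs on this count. C57BL/6 17-week replicate 2 held injury genes far above its partners, with Lcn2 at 180 and Havcr1 at 37.4 FPKM. Immune genes were high in it as well. Ccl8 at 75.8, Lyz2 at 786, C1qa at 176 and Trem2 at 6.29 FPKM lay above every MRL/lpr kidney. Cxcl9 at 3.21 and Chil1 at 0.32 FPKM lay below all older MRL/lpr kidneys. Without that library 216 genes were more positive and 92 more negative, 2.4% of 12841. Among them were 177 of the genes that changed with age in MRL/lpr. Over the macrophage list the median age difference in C57BL/6 was 0.51 without that library and 1.23 with it, and over the T cell list 0.27 and 0.63.

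Chil1 and Cyp27b1 passed the interaction with all 12 libraries. With 1 library left out Cyp27b1 passed in 12 of 12 fits (adjusted p up to 0.0342) and Chil1 in 5 of 12 (adjusted p up to 0.0665), and with a replicate block Chil1 was at adjusted p = 0.065. Chil1 stayed at 0.04 to 0.32 FPKM in all C57BL/6 kidneys, so that the MRL/lpr age difference was larger by 3.31 on the log2 scale (adjusted p = 0.0141). Cyp27b1 read 2.17, 1.21 and 1.13 FPKM in C57BL/6 at 8 weeks and 11.96, 9.96 and 8.49 at 17 weeks. The MRL/lpr kidneys at 17 weeks, at 1.08 to 1.63 FPKM, were below all of these older controls, and the age differences differed by -2.53 (adjusted p = 0.00534). Pla2g2d (interaction 1.74, adjusted p = 0.135) and Sox18 (-1.34, adjusted p = 0.0874) passed only without C57BL/6 17-week replicate 2, at 2.02 (adjusted p = 0.0102) and -1.17 (adjusted p = 0.0197).

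Several changes named above were also seen in C57BL/6, fitted without the same library: Cry2 rose by 0.77 (adjusted p = 0.00363), Dnajb1 fell by 0.57 (adjusted p = 0.000681), Slc22a12 fell by 0.56 (adjusted p = 0.0155) and Timp3 fell by 0.34 (adjusted p = 0.0299). Lyz2 (1.51, adjusted p = 0.0221), Wfdc17 (1.19, adjusted p = 0.0348) and Fga (0.77, adjusted p = 0.0165) also rose in that fit. Banp fell by 0.64 in it (adjusted p = 0.0227). The interaction did not pass for any of these genes, with or without that library. At 8 weeks Wfdc17 was already higher in C57BL/6, at 1.48, 0.94 and 2.69 FPKM, than in MRL/lpr. The median over the hepatocyte list was larger in C57BL/6 than in MRL/lpr, with or without that library. Igf2, a growth factor, rose in both strains, from 0.98, 0.84 and 0.56 to 4.96, 2.69 and 3.66 FPKM in MRL/lpr (1.39 ± 0.19, adjusted p = 0.0151) and by 3.78 in C57BL/6 without replicate 2 (adjusted p = 0.00363), with the interaction short of the threshold (-2.28, adjusted p = 0.165). Ccl8 and Vim passed the interaction only without that library (3.20, adjusted p = 0.0249, and 1.14, adjusted p = 0.00696), and Lyz2 in neither fit (0.96, adjusted p = 0.153, without it).

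**Figure D4:**
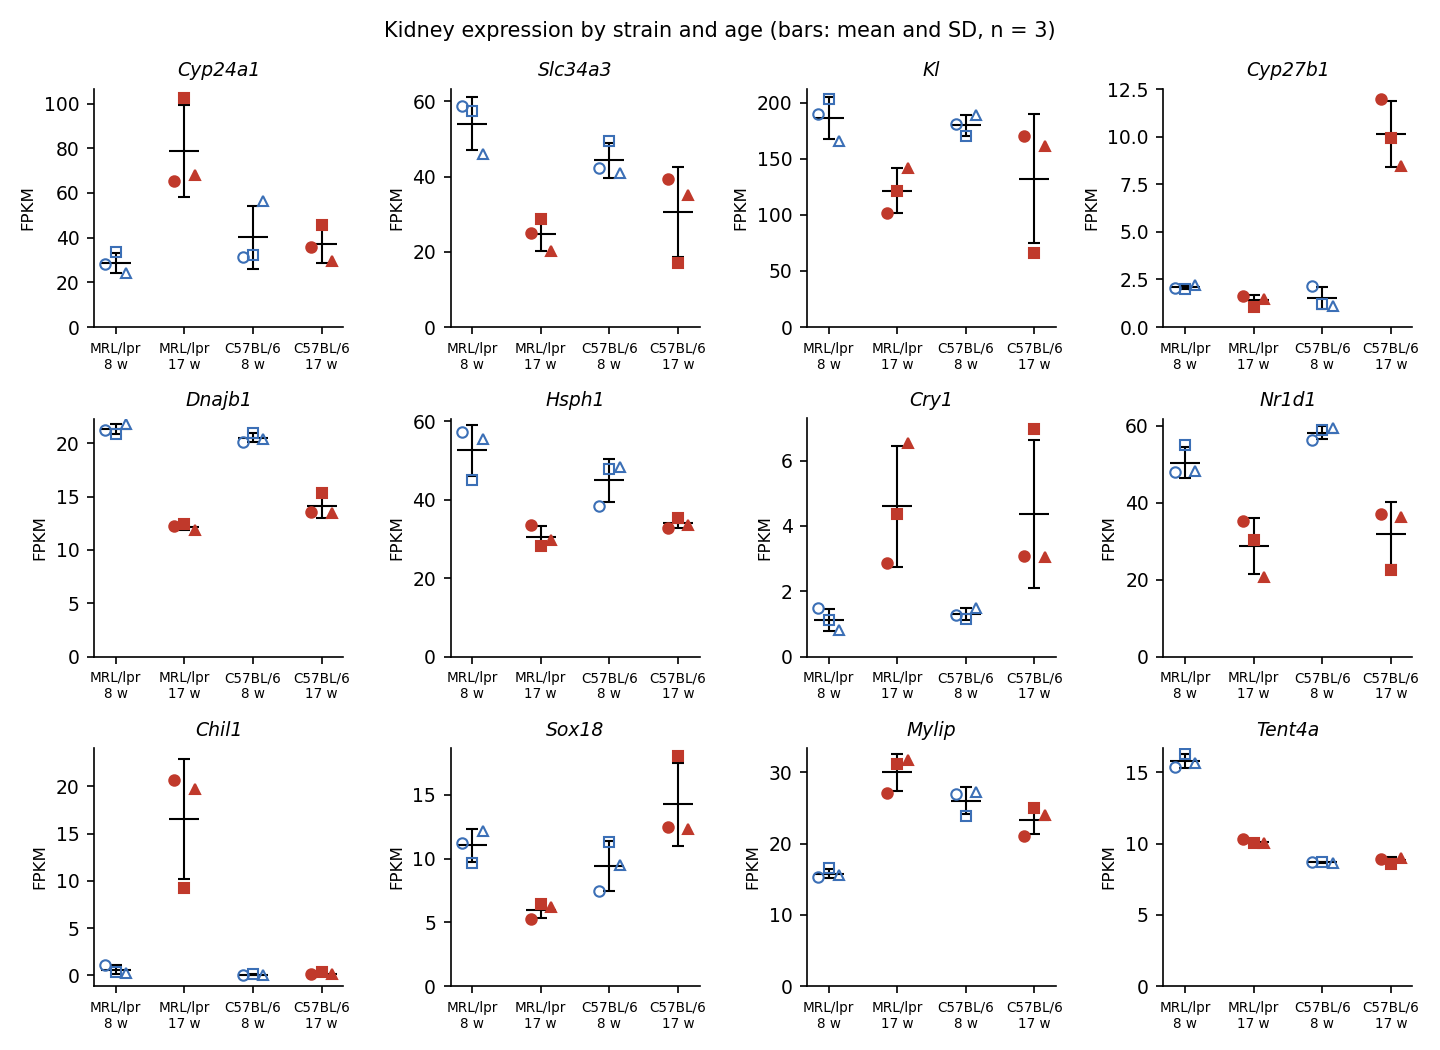
FPKM (linear axis) of 12 genes in all 12 libraries by strain and age in weeks; symbols are libraries, shaped by replicate, and black bars give the mean and SD of 3. Chil1 is high only in the 3 MRL/lpr kidneys at 17 weeks, at 9.23 to 20.7 FPKM, and Cyp27b1 is high only in the 3 C57BL/6 kidneys at 17 weeks, at 8.49 to 11.96 FPKM.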

How the data were processed

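RNA was isolated from kidney with TRIzol and 2 ug of it went into each mRNA library, per the labels' protocols. Reads were aligned with Bowtie2 to GRCm38.p6 and quantified with RSEM 1.3.1, and DESeq2 1.34.0 is also named, per the submitters' processing notes. The authors deposited 1 table of FPKM with 12 columns, whose unit was taken from the values because the header names none; columns were matched to samples by strain prefix (LN for MRL/lpr, C for C57BL/6), age and replicate number. FPKM of the 72806 deposited transcripts (31263 curated NM, 41543 predicted XM) were summed to 19034 genes, 18886 of them with a symbol. Near-identical copies may share reads, and MRL/lpr reads were aligned to a C57BL/6 genome.

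Genes at 1 FPKM or more in at least 3 of the 6 MRL/lpr libraries were tested with limma 3.58.1 (R 4.3.3) on log2(FPKM + 1), with a mean-variance trend and robust moderation, two-sided, with Benjamini-Hochberg adjustment over all genes tested and a threshold of 0.05. Differences are 17 minus 8 weeks ± SE. The interaction of strain and age used all 12 libraries. Other steps ran in Python 3.11.15 (numpy 2.4.6, pandas 2.3.3). On simulated data of 12573 genes this fit recovered 79.1% of the changes of 1.5-fold, 89.6% at 2-fold and 98.5% at 4-fold. Of its calls 4.3% were false. Changes were planted only in genes of higher mean level, and noise was drawn for each gene on its own. These rates therefore do not cover low genes or shifts that many genes of a library share, as in 8-week replicate 3.

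Members and the 50 gene lists (1084 of 1100 entries found, 1008 distinct genes) were chosen with earlier results of these data known, so list counts are descriptions without a test of their own. Named are, in each direction, the 12 largest differences past the threshold, without overlap and with a mean of 1 FPKM or more in the higher group (predicted, ribosomal protein and some near-identical genes left out), up to 4 members of each list past the threshold, preset core members, and Fas and Nnt. Ccl3, Ccl9, Fkbp4, Gatm, Hspa8, Hba-a2, Hbb-bt, the seminal vesicle genes and the genes named for the interaction alone were chosen after their values were seen. Alternatives were the libraries in the fit, 3 other scalings, a pseudocount of 0.1, other filters, NM transcripts only, library weights, no trend, a replicate block, and leaving out each library. Some genes that meet the rule are left out of the text. Promoter sequences are RefSeq's for GRCm38.p6.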

Additional observations from a re-analysis of the deposited data

Results flagged for a closer look

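For 7 genes the age difference in MRL/lpr departed from that in C57BL/6 by the interaction of strain and age (limma, all 12 libraries, n = 3 per group). Chil1 was larger by 3.31 (adjusted p = 0.0141) and Cyp27b1 lower by a log2 of -2.53 (adjusted p = 0.00534), with the values given in the report. With 1 library left out Cyp27b1 passed in 12 of 12 fits, and the other 6 genes in 1 (Svs2, of 9 that tested it), 2 (Gm15056, of 9), 3 (Hddc2), 5 (Chil1 and Tent4a) and 6 (Mylip) of 12. With a replicate block these 6 were at adjusted p of 0.065 to 0.108 and Cyp27b1 at 0.00713. Gm15056 differed by 3.19 (adjusted p = 0.0141): it stood at 0.42, 0.20 and 0 FPKM in MRL/lpr at 8 weeks, at 14.3, 5.26 and 12.4 at 17 weeks, and was listed at 0 in all C57BL/6 kidneys.

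Mylip, a ubiquitin ligase, differed by 1.03 (adjusted p = 0.0141). It went from 15.3, 16.5 and 15.6 to 27.0, 31.2 and 31.7 FPKM in MRL/lpr and read 26.9, 23.9 and 27.3 and then 21.0, 24.9 and 24.02 in C57BL/6. Tent4a, a poly(A) polymerase, differed by -0.61 (adjusted p = 0.0141). It fell from 15.4, 16.3 and 15.7 to 10.3, 10.01 and 10.06 FPKM in MRL/lpr and stayed between 8.53 and 9.01 in the 6 C57BL/6 kidneys. Hddc2 differed by 0.74 (adjusted p = 0.0141), at 6.73, 6.30 and 6.90 and then 10.2, 9.26 and 10.1 FPKM in MRL/lpr, against 8.46, 8.87 and 9.32 and then 7.60, 7.61 and 6.92 in C57BL/6.

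Svs2, a seminal vesicle secretory protein, differed by 1.53 (adjusted p = 0.022). It was at 2.48, 1.99 and 1.33 FPKM in the older MRL/lpr kidneys and listed at 0 in the other 9 libraries.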

How the results depend on the processing

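The 765 genes that rose in MRL/lpr became 213 with all 12 libraries in the fit, 1551 with 11 (C57BL/6 17-week replicate 2 left out), 470 with quantile normalization, 145 with NM transcripts only, and 53 to 1012 with 1 library left out (lowest without 8-week replicate 1, highest without 8-week replicate 3). The 322 that fell became 174, 782, 505 and 53 under the same 4 settings, 207 with no filter, and 22 to 247 with 1 library left out. The 5 genes more positive in MRL/lpr by the interaction became 2 with a pseudocount of 0.1 and 0 to 216 with 1 library left out, and the 2 more negative became 1 to 92; both highest counts came without C57BL/6 17-week replicate 2. Hao2 (-0.33, adjusted p = 0.0266) was at 0.00 (adjusted p = 0.993) with NM transcripts only. The cause of these shifts was not tested.

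Same-numbered libraries of the 2 ages correlated at -0.046, 0.187 and -0.165 in their deviations from the group means, so the numbers were not taken as pairs. With a replicate block 243 genes rose and 53 fell, and the interaction passed for 0 and 1 genes.

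Of 108 named genes past the threshold, 7 kept the call in all settings that fitted them (Banp, Chil1, Dnajb1, Palld, Pdk4, Pla2g2d and Wfdc17). With 1 library left out, 15 kept it in every fit that tested them. Among these, Gpnmb, Pla2g2d, Trem2 and Wfdc17 were tested in only 3 fits each, none of them without a 17-week library. With 8-week replicate 1 left out 90 lost it, and with 8-week replicate 3 left out 11 did (among them Cyp2d9, Hp, Ndufa2, Nr1d1, Nsdhl, Odc1, Saa3, Thbs1 and Ugt2b38). Fitting all 12 libraries took the call from 68, NM transcripts only from 56, the replicate block from 48 and library weights from 0. Medians of 8 of 47 lists moved by more than the spread between replicates without 8-week replicate 3, and 9 did so with no filter. Under quantile normalization, a pseudocount of 0.1 and NM transcripts only, 6 moved in each. Depth is unknown, so no detection limit can be given for genes listed at 0.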

Other observations

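Several secretory genes of the male accessory glands were above 0 in all 3 MRL/lpr kidneys at 17 weeks and at or near 0 elsewhere. Svs4 stood at 3.64, 3.39 and 1.28 FPKM, Svs5 at 3.37, 3.72 and 1.42, Svs6 at 1.81, 1.57 and 0.46 and Sva at 1.18, 0.90 and 0.75 in the 3 older MRL/lpr libraries, and all were listed at 0 in the other 9. With Svs2, Ceacam10 and Spinkl, 7 genes were at 0.3 FPKM or more in these 3 libraries and at 0 in the rest, and 0 genes showed the reverse. Related genes were close to 0 outside these libraries, with Svs3a at most at 0.05, Pate4 at 0.06 and Svs1 at 0.01 FPKM in the other 9. Svs4, Svs5 and Svs6 lie close together on chromosome 2 (Svs4 at 164275956 to 164278307, GRCm38.p6). The Y-linked genes Ddx3y and Kdm5d were at most at 0.02 FPKM in all 12 libraries. Where the secretory transcripts came from was not tested.

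Of the sex-biased kidney lists, 1 of 15 male-biased genes rose and 1 fell, and 1 of 17 female-biased genes, Hao2, fell; over all genes 6.08% rose and 2.56% fell. Hao2 kept its call in 1 of the 6 fits with 1 library left out. Cyp2d9, a male-biased P450 with near-identical copies, read 3.21, 2.22 and 3.09 FPKM at 8 weeks and 8.89, 5.73 and 14 at 17 weeks (1.39 ± 0.29, limma adjusted p = 0.0423), and kept its call in 1 of those 6 fits. Nsdhl, an enzyme of sterol synthesis, fell by 0.28 ± 0.06 (adjusted p = 0.0407), and kept its call in none of them.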
